A study of Brassica rapa subsp. pekinensis with 10 samples.

Results

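Among 47548 array features of Chinese cabbage (Brassica rapa subsp. pekinensis), 95 stood out as far brighter in the arrays labelled Man-Su under cold stress than in those labelled Shin-Hong. They were chosen by their log2 intensity: the lowest of the 4 Man-Su cold arrays had to lie over 2.0 log2 units, or 4-fold, above the highest of the 4 Shin-Hong cold arrays. This margin was met by 0.2% of all features. The 95 were then divided by their mean in the Shin-Hong cold arrays. In 35 features, called on or off here, that mean lay below the array's random-sequence control, and in 60, called graded, it lay above. The choice used the variety difference in cold itself, so that difference is described here and not tested.

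Total RNA of 2 varieties, Man-Su and Shin-Hong, had been labelled with Cy3 and read on 10 NimbleGen arrays, with 1 array in each of 10 groups. The groups were Man-Su at 15, 30, 60 and 120 min of cold stress, Man-Su normal, Shin-Hong at the same 4 times of cold stress, and Shin-Hong normal. The labels call the normal plants wild type, and no transgene or other treatment is named. The sources used here do not give the tissue, the temperature, the plant age or whether plants were pooled.

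A long-oligonucleotide array reads how much labelled RNA binds to the probes of a feature. A dim feature can mean little transcript or a transcript that matches the probes poorly, and from the intensity alone these cannot be told apart, nor can fewer cells of a type and less RNA per cell. Plants of the cabbage family answer cold within a short time through transcription factors of the CBF family, which switch on cold-regulated protective genes. Differences between varieties in single transcripts exist beside that response and need not depend on it. The features carry only IDs of expressed sequence tag clusters: the gene information field was empty, and 0 of the 47548 IDs were found in the gene name table of assembly CAAS_Brap_v3.01. No gene, function, position or sequence could therefore be given for any of the 95, and they are described by their values.

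The array medians lay between 12.02 and 12.08 log2 units. The random-sequence control, summarised over 57777 probes, lay between 5.13 and 5.74 and serves here as the background level. It was 5.24, 5.63, 5.23 and 5.26 in Man-Su cold at 15, 30, 60 and 120 min and 5.58, 5.42, 5.52 and 5.74 in Shin-Hong cold. The arrays labelled normal went against their variety labels at these features. All 95 were dimmer in the Man-Su-labelled normal array than in the Shin-Hong-labelled normal array, the opposite of the cold arrays. The sample titles hold a letter that goes with Man-Su in the normal array and with Shin-Hong in the cold arrays, and another that goes the other way. The variety names below are therefore those of the labels, and each comparison with a normal array is given with the labels as they stand and with them exchanged.

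Across all 95 features, the median level was 11.19, 11.21, 11.33 and 11.32 log2 units in Man-Su cold at 15, 30, 60 and 120 min. It was 7.16, 6.65, 6.50 and 6.43 in Shin-Hong cold at the same times. By the rule that chose them the varieties did not overlap at any feature. With the control in place of any lower Shin-Hong value, the difference between the variety means had a median of 3.28 log2 units and a range of 0.72 to 6.42. In the 35 on or off features it is a bound, as it is in 10 graded features with at least 1 Shin-Hong array below its control. Over all features the median of the measured difference was 0.05. The bright side was not extreme: the Man-Su means ran from 6.29 to 14.01 around a median of 11.22, while the median of all features was 12.05.

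**Figure D1:**
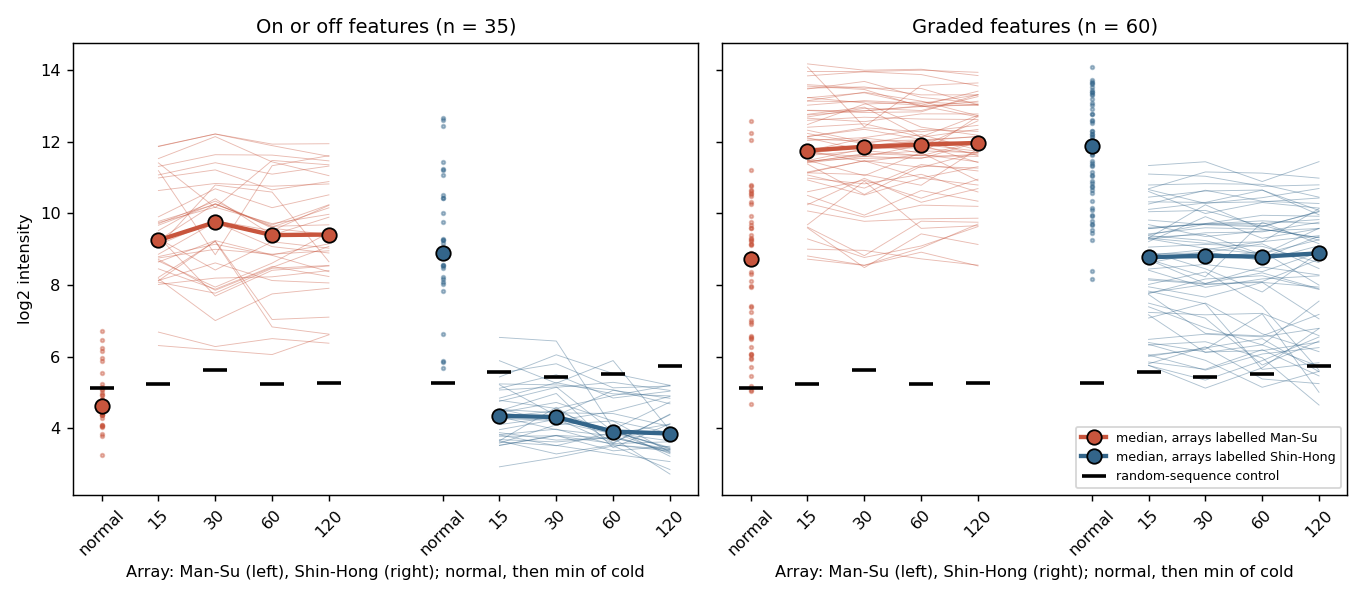
Log2 intensity of the 35 on or off features (left panel) and the 60 graded features (right panel) in the 5 arrays labelled Man-Su (red) and the 5 labelled Shin-Hong (blue). Thin lines join a feature's cold arrays, small dots are its normal array, large points are medians and black bars the random-sequence control. Through cold the medians lie between 9.25 and 9.75 (on or off) and 11.75 and 11.96 (graded) in Man-Su, and between 3.85 and 4.34 and 8.77 and 8.88 in Shin-Hong, and the normal array of each label lies at the level of the other variety's cold arrays.

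At the edge of the rule the set passed smoothly into the rest of the array. The 3 features with the narrowest margins inside it had gaps of 2.01, 2.03 and 2.05 log2 units between the lowest Man-Su and the highest Shin-Hong array. The nearest 3 outside had gaps of 1.99, 1.97 and 1.96. Within 0.1 log2 units of the threshold there were 9 features on each side. The split by background was likewise continuous. The control averaged 5.57 in the Shin-Hong cold arrays, the on or off feature nearest to it averaged 5.55 there and the nearest graded feature 5.67. Only 11 of the 95 lay within 0.5 log2 units of the control, 4 on or off and 7 graded.

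The 35 on or off features paired a signal above the control in Man-Su with background in Shin-Hong. Their Man-Su cold means had a median of 9.66 log2 units, below the first quartile of 10.46 over all features. Their median level was 9.25, 9.75, 9.39 and 9.40 log2 units in Man-Su cold at 15, 30, 60 and 120 min, and 4.34, 4.31, 3.90 and 3.85 in Shin-Hong cold. All 95 features, these 35 included, were above the control in every Man-Su cold array. In Shin-Hong, 30 of the 35 were below the control in each of the 4 cold arrays, and 5 were above it in at least 1. Of the 35, 19 reached a Man-Su mean of 9 log2 units, 10 reached 10 and 6 reached 11. None of the 35 exceeded 12.06, the mean of the Man-Su cold array medians. Features with a Shin-Hong mean below the control were 36.8% of the 95 and 0.593% of all features, a contrast that the choice of low Shin-Hong values favours. A Man-Su cold mean below the control was found in 0 of the 95 and in 0.442% of all features.

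Values under the control were taken here to carry no order, which was not tested, so the size of these differences is given as a bound. For it, the Shin-Hong value in each array was taken as the higher of the feature and the control. The feature with the largest bound, Brapa_ESTC012584, had 11.86, 12.21, 11.93 and 11.94 log2 units in Man-Su cold at 15, 30, 60 and 120 min. In Shin-Hong cold it had 4.43, 4.72, 4.20 and 3.33, each below the control of its array. It averaged 11.99 ± 0.16 in Man-Su cold and 4.17 ± 0.60 in Shin-Hong cold (SD, n = 4 each) and was at least 85.7-fold brighter in Man-Su.

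Another on or off feature had a wider measured gap and a smaller bound. It read 11.87, 12.21, 11.89 and 11.59 log2 units in Man-Su cold, against 3.82, 3.97, 3.53 and 3.36 in Shin-Hong cold, and was at least 80.1-fold brighter. Over the 35 features the bounds ran from 1.65-fold to 85.7-fold with a median of 13.1-fold. Bounds of at least 4-fold held for 33 of the 35, at least 16-fold for 17 and at least 32-fold for 9. The 2 features under 4-fold were dim on both sides. One of them read 6.31, 6.18, 6.05 and 6.61 in Man-Su cold, against 3.52, 3.79, 3.37 and 3.50 in Shin-Hong cold, and was at least 1.65-fold brighter. The other was at least 1.86-fold brighter, with 6.46 ± 0.17 in Man-Su cold and 3.69 ± 0.11 in Shin-Hong cold (SD, n = 4 each). These 2 met the rule through Shin-Hong values far under the control, so their margins of over 4-fold are no measure of the size of the difference. They were not the only such features. Brapa_ESTC050076 had a lowest Man-Su cold value of 6.62, under 2.0 above the control of 5.74 in Shin-Hong cold at 120 min.

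**Figure D2:**
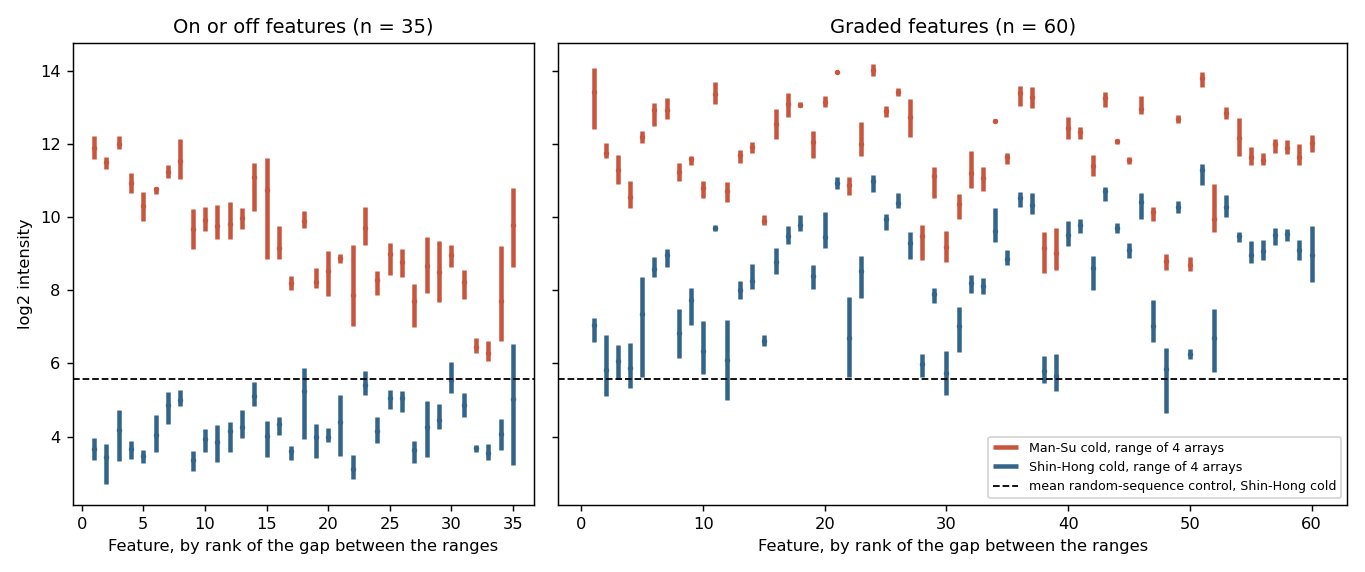
Range (bar) and mean (point) of log2 intensity over the 4 Man-Su cold arrays (red) and the 4 Shin-Hong cold arrays (blue) for each of the 35 on or off and 60 graded features, ordered by the gap between the ranges. The dashed line is the mean control of 5.57 in Shin-Hong cold; on or off features have their Shin-Hong means below it, and the gaps end at the threshold of 2.0.

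The 60 graded features had means above the control on both sides. Their median level was 11.75, 11.86, 11.92 and 11.96 log2 units in Man-Su cold at 15, 30, 60 and 120 min, and 8.77, 8.81, 8.79 and 8.88 in Shin-Hong cold. The Man-Su mean was above 12.06, the mean of the array medians, in 26 of the 60, so many of these were of ordinary brightness or more in Man-Su. The fold between the variety means had a median of 8.98 and ran from 5.08 to 83.3. It was at least 8-fold in 37 features, at least 16-fold in 10 and at least 32-fold in 3. In 10 of the 60 at least 1 Shin-Hong array lay below its control, although the mean did not. With the control in place of such values the median fold of the 60 was 8.89.

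Brapa_ESTC005851, the graded feature with the widest gap, had 14.08, 12.41, 13.57 and 13.64 log2 units in Man-Su cold at 15, 30, 60 and 120 min. In Shin-Hong cold it had 7.23, 7.16, 7.21 and 6.58. Its mean was 13.43 ± 0.71 in Man-Su cold and 7.05 ± 0.31 in Shin-Hong cold (SD, n = 4 each), a difference of 6.38 log2 units or 83.3-fold. Its Man-Su value at 30 min was over 1 unit below the other 3, and its Shin-Hong values were all above the control. The graded feature brightest in Man-Su read 14.17, 13.99, 14.02 and 13.84 there, against 10.68, 11.15, 11.12 and 10.98 in Shin-Hong cold. Its difference was 8.13-fold, and its level in Shin-Hong was still far above the control. The tightest feature had 13.96, 13.96, 14.00 and 13.94 in Man-Su cold, a range of 0.06 log2 units, and 11.09, 11.03, 10.75 and 10.79 in Shin-Hong cold.

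Over cold time the 95 features did not move together. The slope per doubling of cold time was fitted in the 8 cold arrays with limma, with variety as a term, and p-values were adjusted by Benjamini-Hochberg across the 47548 features, with calls at 0.05. The trend was called in 0.0841% of all features, 0.0694% rising and 0.0147% falling, and in 0 of the 95, whose smallest limma adjusted p was 0.185. An unadjusted limma p under 0.05 was reached by 12 of the 95, 3 with positive and 9 with negative slopes. That is 12.6%, and the share over all features was also 12.6%. The median slope of the 95 was -0.01 log2 units per doubling, with 41 of 95 positive, and that of all features was 0.00. On quantile normalized values the balance of signs turned: 6 reached an unadjusted limma p under 0.05, 5 of them with positive slopes, and 55 of 95 slopes were positive, with a median of 0.04. No direction can be read for the group. The rule bounds the spread over time by the gap between the varieties, so these slopes were not wholly free of it. In the 30 features below the control in every Shin-Hong cold array, the Shin-Hong part of the slope describes signal under the control.

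The difference of the slopes between the varieties was called in 0% of all features and in 0 of the 95 with limma, whose smallest adjusted p was 0.975. An unadjusted limma p under 0.05 was reached by 10 of the 95, 8 with a more positive slope in Man-Su and 2 with a more negative one, against 4.46% of all features. On quantile normalized values 10 also reached it, but only 4 of these had the more positive slope in Man-Su. The median difference was 0.07 log2 units per doubling with 61 of 95 positive on the deposited values, and -0.07 with 35 positive after quantile normalization, so its direction depends on the scaling. On the deposited values the median slope was 0.02 log2 units per doubling in Man-Su and -0.06 in Shin-Hong. For the graded features these medians were 0.02 and -0.03. For the on or off features they were 0.02 and -0.12, the Shin-Hong value being that of signal mostly under the control.

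**Figure D3:**
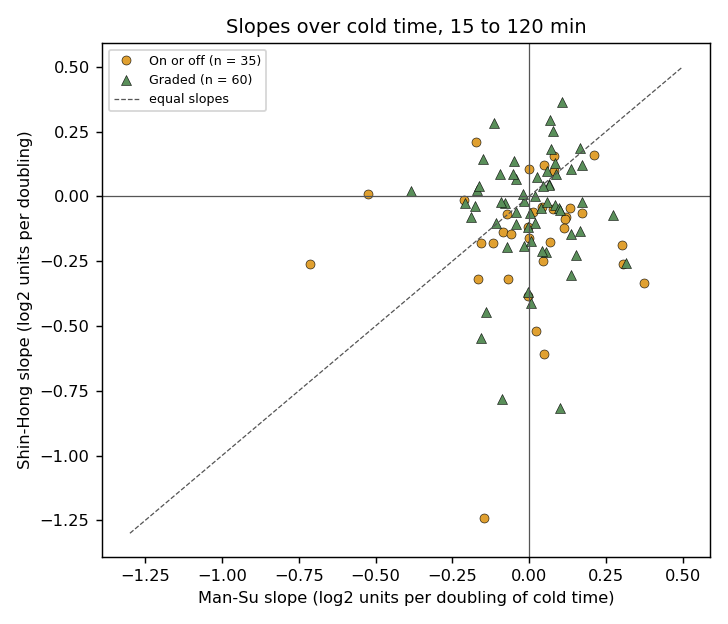
Fitted slope over 15 to 120 min of cold for each of the 95 features, in log2 units per doubling of time, in Man-Su (horizontal) and Shin-Hong (vertical); circles are on or off and triangles graded features, and the dashed line marks equal slopes. Most points lie near 0 on both axes, with medians of 0.02 and -0.06, and the point lowest in Shin-Hong is Brapa_ESTC006587 at -0.15 and -1.24.

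The spread over the cold arrays differed among the features. In Man-Su the range over the 4 times had a median of 0.57 log2 units in the 95 and 0.41 over all features, and in Shin-Hong 0.65 and 0.48. The Man-Su range exceeded 1.0 in 20 of the 95, or 21.1%, against 11.1% of all features. Of these 20, 13 were among the 35 on or off features and 7 among the 60 graded. The excess over all features thus lay in the on or off part. These features were dimmer in Man-Su than most of the array, and the comparison was not matched for brightness. The 4 ranges above 2.0, against 0.559% of all features, were all in on or off features. The range was below 0.5 in 40 of the 95, or 42.1%, against 59.9% of all features, and 32 of these were graded. The lowest Man-Su array was the one at 15, 30, 60 and 120 min in 27, 25, 19 and 24 features, against 24.7%, 29.7%, 19.7% and 25.9% of all features. No single time set the Man-Su minimum of the whole group.

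Steady courses were few. In Man-Su cold, 4 of the 95 were higher at each later time and 3 lower, against 5.77% and 4.72% of all features. In Shin-Hong cold, 4 were higher at each later time, against 6.67%, and 7 lower, against 6.89%. The 7 were all on or off, so their order lies mostly under the control. The Shin-Hong array at 120 min was the lowest of the 4 in 19 of the 35 on or off features, or in 38 of all 95, against 38.2% of all features. The control was highest in that same array, at 5.74.

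Among the on or off features the Man-Su 30 min array stood out. It was the highest of the 4 Man-Su cold arrays in 22 of the 35, or in 34 of all 95, against 27.9% of all features, and in 12 of the 60 graded ones. The median deviation of the 35 from their own Man-Su mean was 0.23 at 30 min and -0.11, -0.07 and 0.06 at 15, 60 and 120 min. The random-sequence control was also highest in that array among the Man-Su cold arrays, at 5.63 against 5.23 to 5.26 in the others. The part of array background in these 30 min values was not tested.

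The widest Man-Su ranges went in opposite directions at 30 min. The on or off feature with the widest range had 11.19, 8.84, 11.33 and 11.61 log2 units in Man-Su cold at 15, 30, 60 and 120 min, so it was low at 30 min alone, and 4.43, 4.25, 3.92 and 3.43 in Shin-Hong cold. Brapa_ESTC050076, one of the 2 with the most negative fitted slopes, had 8.21, 9.22, 6.83 and 6.62 in Man-Su cold and 4.31, 4.48, 3.86 and 3.64 in Shin-Hong cold. Its slope was -0.49 ± 0.18 log2 units per doubling (SE, limma adjusted p = 0.309). Its neighbour in ID number, also on or off, had nearly the same Man-Su course of 8.11, 9.23, 7.03 and 7.10. Both were highest at 30 min and lower at 60 and 120 min than at 15 min.

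Brapa_ESTC006587 had a fitted slope of -0.69 ± 0.29 log2 units per doubling (SE, limma adjusted p = 0.382), the most negative of the 95. It read 9.07, 10.79, 10.59 and 8.65 in Man-Su cold at 15, 30, 60 and 120 min. In Shin-Hong cold it read 6.53, 6.43, 3.99 and 3.21. The Shin-Hong values at 15 and 30 min were above the control and those at 60 and 120 min below it, so this feature was on or off by its mean alone. The slope was -1.24 in Shin-Hong, set by the values under the control, and -0.15 in Man-Su, so its size and rank carry no weight. Over both varieties it was -1.19 without Man-Su cold 15 min, and -0.39 without Man-Su cold 30 min and Shin-Hong cold 120 min. The steadiest change by the smallest adjusted p was in a graded feature that read 11.41, 11.59, 11.53 and 11.98 in Man-Su cold and 8.83, 8.98, 9.21 and 9.37 in Shin-Hong cold. Its slope was 0.18 ± 0.05 log2 units per doubling (SE, limma adjusted p = 0.185). None of these slopes passed the test.

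The normal arrays, which the rule did not use, showed the same features with the varieties in reverse. With 1 normal array a variety there is no test. Man-Su lay below Shin-Hong in the arrays labelled normal in all 95 features, against 51% of all features. It lay over 1.0 log2 unit below in 93, against 3.67% of all features, and over 2.0 below in 78, against 0.456%. Of the 78, 31 were on or off and 47 graded. The reverse, Man-Su over 2.0 above Shin-Hong, was found in 0 of the 95 and in 0.894% of all features. The median difference, Man-Su minus Shin-Hong normal, was -3.68 log2 units in the 95 and -0.01 over all features.

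The median level of the on or off features was 4.63 log2 units (Man-Su-labelled normal array) and 8.90 (Shin-Hong-labelled). For the graded features it was 8.71 and 11.87. Brapa_ESTC012584 read 4.63 in the Man-Su-labelled normal array and 12.62 in the Shin-Hong-labelled normal array. Brapa_ESTC005851 read 6.92 in the Man-Su-labelled normal array and 14.07 in the Shin-Hong-labelled normal array. Below the control of the Man-Su-labelled normal array were 29 of the 95, against 0.33% of all features, and 26 of these were on or off. Below the control of the Shin-Hong-labelled normal array were 0 of the 95, against 0.463%.

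Each normal array lay close in level to the cold arrays of the other label. The Shin-Hong-labelled normal array was nearer to the Man-Su cold mean than to the Shin-Hong cold mean in 93 of 95 features, against 60% of all features. The Man-Su-labelled normal array was nearer to the Shin-Hong cold mean in 94, against 55.7%. The Man-Su cold mean differed from the Shin-Hong-labelled normal array by a median of 0.07 log2 units (cold minus normal), and 82 of 95 features lay within 1.0 of it, against 91.8% of all features. The Shin-Hong cold mean differed from the Man-Su-labelled normal array by a median of -0.15, and 78 of 95 lay within 1.0, against 93.3%. Such closeness was ordinary for the array and no trait of the 95, where it was less common, at 86.3% and 82.1%. Taken by their own labels, the Man-Su cold mean stood 3.80 above the Man-Su-labelled normal array, and the Shin-Hong cold mean stood -3.60 from the Shin-Hong-labelled normal array, again as medians. In 94 of 95 features all 4 Man-Su cold arrays were above, and all 4 Shin-Hong cold arrays below, the normal array of the same label, which held for 9.32% of all features. The cold side of that count is the rule's own contrast. A true reversal between normal plants and 15 min of cold and an exchange of labels cannot be told apart with 1 normal array a variety.

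**Figure D4:**
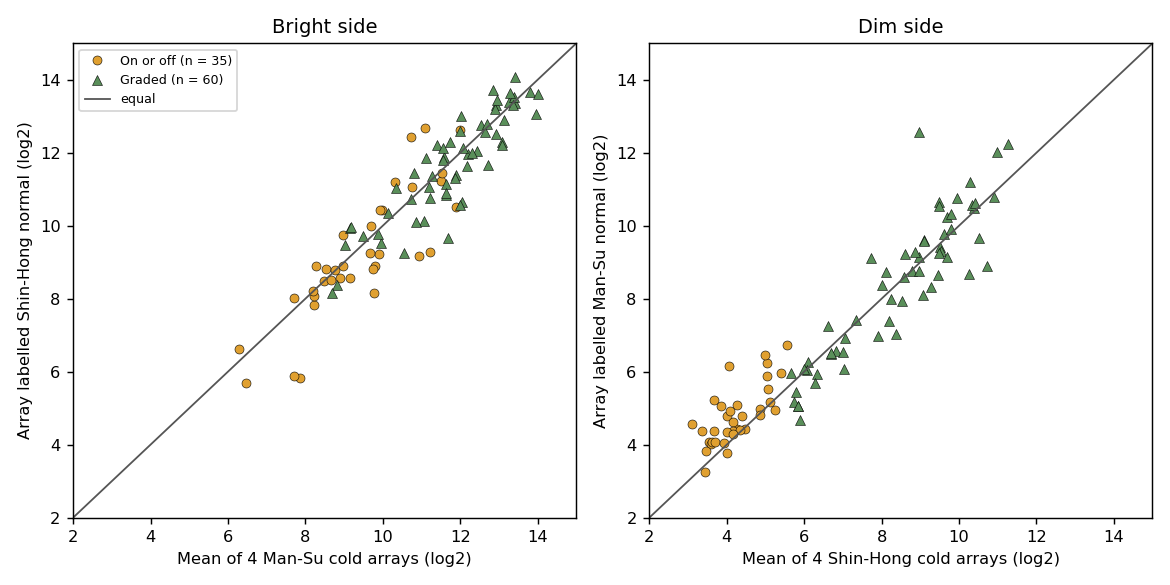
Log2 intensity of the 95 features in the Shin-Hong-labelled normal array against the mean of the 4 Man-Su cold arrays (left) and in the Man-Su-labelled normal array against the mean of the 4 Shin-Hong cold arrays (right); circles are on or off, triangles graded features, and the line marks equal values. Points follow the line on both sides, with median differences of 0.07 and -0.15 (cold minus normal), and 1 graded feature, at -3.61, lies far above it on the right.

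A few features lay over 1.0 log2 unit outside the range of the other label's cold arrays. The Shin-Hong-labelled normal array lay within the range of the 4 Man-Su cold arrays in 26 features, above it in 30 and below it in 39, against 33.3%, 29.9% and 36.8% of all features. It lay over 1.0 below the lowest Man-Su cold array in 6 of 95, against 2.74% of all features, and over 1.0 above the highest in 1, against 0.89%. One of the 6, an on or off feature, had 10.99, 11.21, 10.65 and 10.88 in Man-Su cold at 15, 30, 60 and 120 min, against 9.16 in the Shin-Hong-labelled normal array. In Shin-Hong cold it had 3.87, 3.67, 3.72 and 3.40, against 5.22 in the Man-Su-labelled normal array. Brapa_ESTC050076 had at least 6.62 in each Man-Su cold array, against 5.87 in the Shin-Hong-labelled normal array, and its neighbour in ID number had at least 7.03, against 5.84, so both were dimmer there than in any Man-Su cold array.

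On the dim side, the Man-Su-labelled normal array lay above the highest Shin-Hong cold array in 37 of 95 features, against 30% of all features. Below the lowest it lay in 18, against 30.9%. In the 35 on or off features these counts were 20 and 0, for signal mostly under the control. The Man-Su-labelled normal array lay over 1.0 above the highest Shin-Hong cold array in 6 of 95 features, against 0.477% of all features. It lay over 1.0 below the lowest in 3, against 1.86%. The feature farthest above was the single one of the 95 whose Man-Su cold arrays were not above the Man-Su-labelled normal array. This graded feature read 12.23, 11.94, 12.20 and 11.76 in Man-Su cold and 12.57 in the Man-Su-labelled normal array. It read 8.72, 8.23, 9.75 and 9.15 in Shin-Hong cold and 13.01 in the Shin-Hong-labelled normal array, so it was low in the Shin-Hong cold arrays alone.

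The mean change from normal to cold over both varieties was fitted with limma in all 10 arrays, with each time and the labelled variety as terms, as the mean of the 4 cold times minus normal. With the labels as given it was called in 2.03% of all features and in 0 of the 95, with a smallest limma adjusted p of 0.139. An unadjusted limma p under 0.05 was reached by 1 of the 95 and by 22.9% of all features. The reversal between the normal and the cold arrays enters the error of this fit. For Brapa_ESTC012584 the change was -0.54 log2 units with a limma SE of 3.08 as labelled and 0.23 with the labels of the normal arrays exchanged. The median change of the 95, cold minus normal, was -0.04 log2 units, with 43 of 95 positive, and that of all features 0.02. The sign of the median of the 95 was not stable. On quantile normalized values it was 0.04, with 52 positive. As labelled, it was 0.17 to 0.25 when a Shin-Hong cold array was dropped and -0.36 to -0.28 when a Man-Su cold array was dropped. With the labels exchanged it was -0.10 to -0.03 when 1 cold array was dropped, and again 0.04 on quantile normalized values.

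With the labels exchanged, limma called 12.7% of all features, 8.88% higher and 3.83% lower in cold. It called 5 of the 95, all graded, 4 higher in cold and 1 lower. An unadjusted limma p under 0.05 was reached by 21 of the 95, or 22.1%, against 32.3% of all features. The largest rise, 1.37 ± 0.20 log2 units (SE, limma adjusted p = 0.00841), was in a graded feature that read 12.14, 12.34, 12.06 and 11.61 in Man-Su cold, against 10.65 in the Shin-Hong-labelled normal array. In Shin-Hong cold it read 8.70, 8.04, 8.50 and 8.28, against 7.02 in the Man-Su-labelled normal array. The 1 that fell was the feature at 12.57 in the Man-Su-labelled normal array, by 2.29 ± 0.53 log2 units (SE, limma adjusted p = 0.0320). The count of 5, against 6042 of all features, moved when single arrays were left out. It became 3 when Man-Su cold 15 min was dropped, against 2995 of all features. For Man-Su cold 60 min it was 1, against 2581, and for Man-Su cold 120 min 9, against 6469. It became 2 when Shin-Hong cold 15 min (2453 of all features) or Shin-Hong cold 60 min (3599) was dropped. For Shin-Hong cold 120 min it was 3, against 4463. On quantile normalized values it was 10, against 7137. In each of these runs the count over all features moved in the same direction, so the moves were not particular to the 95.

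Beyond their levels the files offer little on what the 95 share. A full set of 7 probes stood behind 94 of them, or 98.9%, and behind 98.4% of all features, so few probes were no mark of the set. The 1 feature with fewer probes, 4, was on or off. In 5 pairs the members had consecutive ID numbers, 10 features in all. In 3 of the pairs both were of the same kind, such as 2 graded features with Man-Su means of 13.09 and 13.37 and Shin-Hong means of 9.49 and 9.70. In the other 2 pairs 1 was on or off and 1 graded. Whether consecutive IDs stand for related sequences is not stated in the labels or files, so the members of a pair may not be separate observations.

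The opposite set, with the lowest Shin-Hong cold array over 2.0 above the highest Man-Su cold array, held 112 features, 0.236% of all. Of these, 25 had a Man-Su mean below the control of the Man-Su cold arrays, or 22.3%, against 36.8% on or off among the 95. The control itself was lower in Man-Su, at 5.34 on average against 5.57 in Shin-Hong cold, so the same cut was stricter there, and the difference of these shares was not tested.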

How the data were processed

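The authors deposited 1 linear intensity per feature and array, made with RMA (background correction, normalization and summary over probes), per the submitters' processing notes. The sources used here give neither its software and version nor which arrays were normalized as 1 set. The number of probes per feature comes from the file headers' probe column. A deposited series-wide table held the same intensities to within 0.005. Their log2 was used with no filter, and 6 control features (5 barcode sequences and 1 random-sequence control) were left out of tests.

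Fits used limma 3.58.1 in R 4.3.3 (lmFit, eBayes, Benjamini-Hochberg over 47548 features, called at an adjusted p under 0.05), with 5, 4 and 4 residual degrees of freedom for the trend, the slope difference and cold against normal. With 1 array a group, SDs are over 4 cold times, errors mix time and array effects, and p-values measure the spread between these arrays, which may be technical. The number of arrays limits the precision. The members and alternatives were chosen with earlier results of these data known.

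IDs printed are the on or off feature with the largest bound, the graded one with the widest gap and the 2 with the most negative fitted slopes. The fits of the trend, the slope difference and cold against normal with exchanged labels were run on simulated data with independent noise. Cold against normal as labelled was not simulated, and the outcome of these runs is not given here.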

Additional observations from a re-analysis of the deposited data

Results flagged for a closer look

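Of 32 comparisons of an array with the rest of its variety, 13 found the array standing apart. The check gives about 1 in 20 by chance for independent values, a rate that does not apply here: 11 of the 13 are values of features chosen on these cold arrays, and most repeat the reversal in the normal arrays. The Man-Su-labelled normal array stood apart among the 5 arrays labelled Man-Su, with medians of 6.51 log2 units for all 95 features, 4.63 for the on or off and 8.71 for the graded. The Shin-Hong-labelled normal array stood apart in its set with 11.03, 8.90 and 11.87. Brapa_ESTC012584 repeated this with 4.63 in the Man-Su-labelled normal array and 12.62 in the Shin-Hong-labelled normal array, as did Brapa_ESTC005851 with 6.92 and 14.07. Within cold, Brapa_ESTC005851 was low in Shin-Hong at 120 min, with 6.58. The random-sequence control was high in Man-Su cold 30 min, with 5.63 both among the 4 Man-Su cold arrays and among all 5 arrays labelled Man-Su.

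In 94 of the 95 features every Man-Su cold array lay above, and every Shin-Hong cold array below, the normal array of the same label. The share over all features was 9.32%, and the cold side of this count is the rule's own contrast. A true reversal and an exchange of labels cannot be told apart here, and the difference was not tested.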

How the results depend on the processing

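The set held 307 features with a margin over 1.0 and 41 with a margin over 3.0, and 84 on quantile normalized values, of which 82 were among the 95. Leaving out a cold array, which can only widen the set, gave 96 to 128, the highest without Man-Su cold 30 min. The on or off count of 35 was 28 on quantile normalized values and 30 to 36 with other readings of the control. Time trend and slope difference called 0 of the 95 with limma under each alternative run. At an unadjusted limma p under 0.05 the trend called 4 to 18 of the 95, against 3776 to 8094 of all features. The slope difference called 4 to 23 of the 95, against 625 to 4757 of all features. Over all features the trend called 40, against 92 on quantile normalized values, 79 without dim features, 60 with the control-feature level as a term, 590 per hour, 78 without Man-Su cold 30 min and Shin-Hong cold 120 min (chosen after seeing the data), and 0 to 75 with 1 array left out. Cold against normal called 0 of the 95 as labelled, 5 with exchanged labels and 10 with these on quantile normalized values. Over all features these runs called 964, 6042 and 7137. With exchanged labels the count was 1 to 9 of the 95 with 1 cold array left out, against 2453 to 6883 of all features. The cause of these moves was not tested. No paired analysis was possible because the labels number no replicates, other than by cold time. Cold against normal already has each time as a term, and the trend cannot be fitted beside it. The slope difference with time as a block (added after seeing the data) called 0 of the 95. In that run 11 of the 95 had an unadjusted limma p under 0.05, against 1719 of all features. Signal under the random-sequence control gives only a bound.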
